A study of Mus musculus with 12 samples.

Results

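The genes described here are 7 transcripts that mark Schwann cells, the glia of peripheral nerves and nerve roots: Pmp22, Prx, Pmp2, Ncmap, Egr2, Ngfr and Cdh19. They were chosen by symbol, and all 7 were found among the 46078 gene identifiers of the count table. They were followed as a check of whether pieces of nerve root were cut out together with the ventrolateral white matter of the spinal cord, which lies next to the ventral roots. The study dissected this white matter from C57Bl6 mice by laser capture, and sequenced its RNA in 12 libraries, each a pool of 5 mice. There were 4 groups with 3 pools each, made of young and middle-aged mice that were either naïve or injured. Naïve mice had no lesion, and injured mice had received lysolecithin, a detergent that dissolves myelin, in the ventrolateral white matter 72 h before. Young mice were 6 weeks and middle-aged mice 8 months old, and no group carried a transgene or a further treatment according to the labels.

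Schwann cells wrap single axons outside the spinal cord and make peripheral myelin, whereas oligodendrocytes make the myelin inside it. Peripheral myelin is built with proteins of its own, PMP22 and periaxin among them, and its genes are switched on by the zinc finger factor EGR2 together with SOX10. After nerve injury, Schwann cells turn off these genes and take on a repair state with high NGFR. Some of the genes are also used outside Schwann cells: Egr2 is induced in stimulated myeloid cells, Pmp22 in many growing cells, and Ngfr in perivascular and meningeal cells.

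The deposited values are raw counts of reads per gene. Totals lay between 9834447 and 12807437 counts per pool, so that 3 counts, taken here as the floor of detection, correspond to 0.234 to 0.305 CPM, the count scaled to a fixed library total. Levels are given as CPM after TMM scaling (edgeR's trimmed means), with the SD over 3 pools. Intervals and floors cover counting error only, since the RNA was amplified, and a p-value measures the spread between pools of different mice. The label of white matter was checked against 7 oligodendrocyte markers, which summed to between 38008 and 41066 CPM in the young naïve and between 25504 and 31648 CPM in the middle-aged naïve pools, and fell at both ages with injury. Transcripts of 6 motor neuron genes were also present, at 184 to 376 CPM in young naïve and 264 to 359 CPM in middle-aged naïve pools. They summed to 30.9 to 52.7 CPM in injured pools. The oligodendrocyte markers alone thus do not show that the tissue was white matter only.

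Of the 7 genes, 5 had no exon base in common with another annotated gene: Pmp22, Ncmap, Egr2, Ngfr and Cdh19. Pmp22, a membrane protein of compact peripheral myelin, lies on the plus strand of chromosome 11 of GRCm38 from 63128982 to 63159547. Prx, the scaffold protein periaxin of myelinating Schwann cells, lies on the plus strand of chromosome 7 from 27499324 to 27520214, and 300 of its 5579 exon bases lie opposite the antisense gene Gm15541. Egr2 lies on the plus strand of chromosome 10 from 67535475 to 67542188, and Ngfr, the low-affinity neurotrophin receptor, on the minus strand of chromosome 11 from 95568818 to 95587735. Ncmap, a protein of noncompact peripheral myelin, lies on the minus strand of chromosome 4 from 135369576 to 135398227. Cdh19, a cadherin of the Schwann cell lineage, lies on the minus strand of chromosome 1 from 110888326 to 110977584.

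Pmp2, the fatty acid binding protein of peripheral myelin, lies on the minus strand of chromosome 3 from 10179851 to 10183929 and is a special case. Of its 1408 exon bases, 1224 (86.9%) belong on the same strand to a second annotated gene, Gm37389, which had 0 counts in every pool. Only 184 bases are its own, 183 of them at the outer end of the gene, from 10183747 to 10183929. The handling of reads that fall on both genes is not given in the sources used here. If such reads were not counted, the value of Pmp2 does not measure its RNA.

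The 250 bases before the start of transcription are shown for 3 of the genes, since Egr2 changed most with injury, Pmp22 had the highest level, and Prx is the one most restricted to myelinating Schwann cells among those with counts. They come from RefSeq on GRCm38.p6, where 5 of the 7 genes matched, and run 5′ to 3′ on the strand of the gene. Prx is at chr7:27499074-27499323, Pmp22 at chr11:63128732-63128981 and Egr2 at chr10:67535249-67535498, all on the plus strand.
Prx: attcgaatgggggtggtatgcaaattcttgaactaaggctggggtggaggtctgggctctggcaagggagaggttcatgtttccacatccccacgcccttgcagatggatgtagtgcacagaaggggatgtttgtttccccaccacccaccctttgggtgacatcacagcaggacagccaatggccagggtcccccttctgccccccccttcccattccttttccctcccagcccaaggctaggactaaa
Pmp22: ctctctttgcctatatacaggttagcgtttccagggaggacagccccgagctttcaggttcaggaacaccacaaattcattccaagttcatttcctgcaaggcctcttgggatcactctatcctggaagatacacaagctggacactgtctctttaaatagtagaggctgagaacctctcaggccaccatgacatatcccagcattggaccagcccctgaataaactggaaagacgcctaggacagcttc
Egr2: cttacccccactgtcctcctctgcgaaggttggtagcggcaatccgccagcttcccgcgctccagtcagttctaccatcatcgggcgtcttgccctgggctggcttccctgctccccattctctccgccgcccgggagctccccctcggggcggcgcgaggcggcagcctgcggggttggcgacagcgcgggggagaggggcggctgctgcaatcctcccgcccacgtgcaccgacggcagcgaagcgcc
The letters GCGNGGGCG, bound by early growth response factors, and ACAAAG, bound by SOX factors, were searched on both strands and stood in none of the 5 windows, so no letters are in capitals. Over the 32851 promoter windows of the table, 4.70% held the first and 16.5% the second. The base composition of the windows differed widely, with 48.8% G and C in Pmp22, 56.4% in Prx and 71.2% in Egr2.

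Prx and Pmp2 were below the floor in naïve white matter, except for Prx in middle-aged naïve pool 3. Ncmap and Drp2, also genes of peripheral myelin, were above it in every naïve pool, at 5 to 35 and 698 to 1164 counts. Prx had 2, 1 and 2 counts in the young naïve pools and 1, 1 and 11 in the middle-aged naïve pools. Pmp2 had at most 1 count in any pool and 0 in 9 of the 12. With the floor of 3 counts, a count of 0 allows up to 0.305 CPM in the shallowest pool, on its few bases that belong to no other gene.

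After injury, Prx stood out in 1 pool. It had 34, 8 and 5 counts in the young injured pools and 9, 7 and 7 in the middle-aged injured pools. Young injured pool 1 held 38.6% of the 88 Prx counts of all 12 pools, and every injured pool was above the floor. By library total, its level was 2.71 CPM (95% Clopper-Pearson interval 1.88 to 3.79), against 0.659 CPM (0.284 to 1.30) in young injured pool 2 and 0.406 CPM (0.132 to 0.947) in pool 3. The interval of the first pool does not meet the others, so the pools of this group differed by more than counting error. Scn7a, a sodium channel of nonmyelinating Schwann cells, had 42 counts in that pool and at most 14 in any other, and Cldn19, a tight junction protein of peripheral myelin, had 7 there and at most 2 elsewhere. Dhh, the hedgehog ligand that Schwann cells send to the nerve sheath, did not single out the pool: it had 21, 24 and 18 counts in the young injured pools, 8, 16 and 7 in the middle-aged injured pools, and at most 3 in naïve pools.

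**Figure D1:**
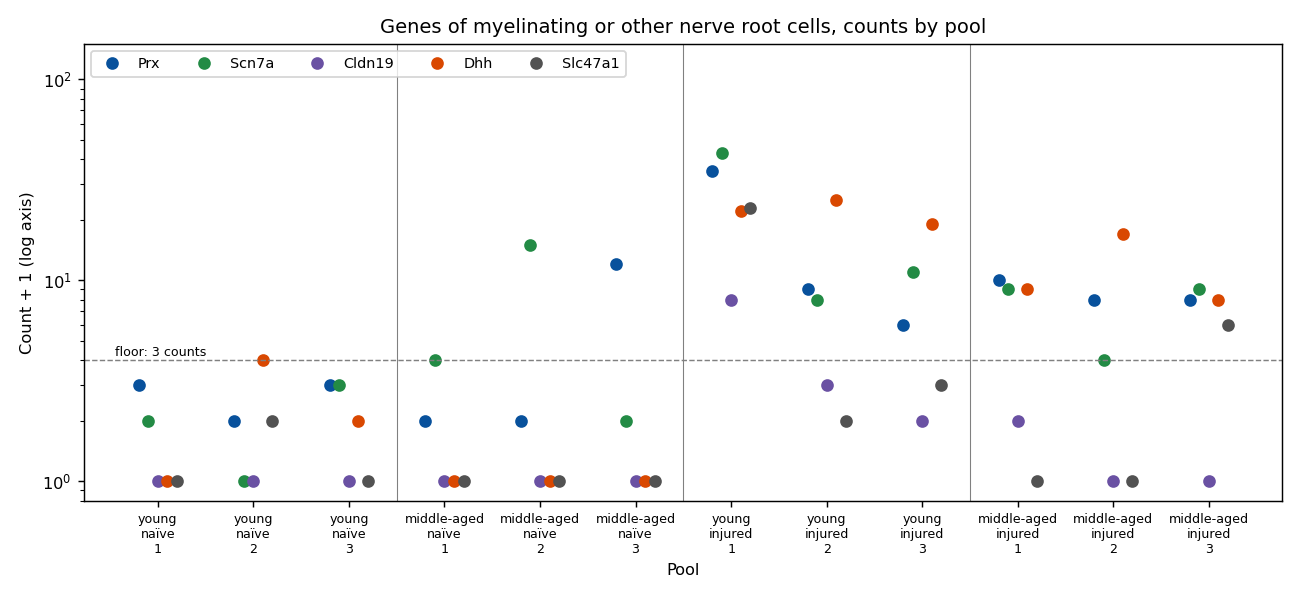
Counts plus 1 (log axis) of Prx, Scn7a, Cldn19, Dhh and Slc47a1 in each of the 12 pools, with the dashed line at the floor of 3 counts. Prx reached 34 counts in young injured pool 1 and at most 11 elsewhere, while Dhh lay between 7 and 24 in all 6 injured pools.

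A summed level was also taken over 6 peripheral myelin genes: Prx, Pmp2, Ncmap, Drp2, Dhh and Cldn19. It was 80.2, 76.0 and 76.5 CPM in the young naïve pools, 106, 89.9 and 94.3 in the middle-aged naïve, 46.9, 34.5 and 30.1 in the young injured and 40.9, 34.5 and 40.8 in the middle-aged injured pools. This sum was almost wholly Drp2, the dystrophin-related partner of periaxin, which had 698 to 1164 counts in naïve pools that held at most 11 counts of Prx. Without Drp2, a choice made after the values were seen, the sum was 1.55, 2.17 and 1.503 CPM in the young naïve pools and 2.01, 3.77 and 1.28 in the middle-aged naïve pools. It was 5.43, 3.25 and 2.26 CPM in the young injured and 2.98, 1.99 and 1.64 in the middle-aged injured pools. Young injured pool 1 was the highest of the 12, followed by middle-aged naïve pool 2. Prx made 34 of the 74 counts of this sum in the first and 1 of 36 in the second. The top rank is therefore not separate from that of Prx. By library totals, the counting intervals of these pools met, at 4.63 to 7.40 CPM and 2.43 to 4.81 CPM.

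Markers of other tissues around the cord were read in the same pools. Slc47a1, a transporter of meningeal fibroblasts, had 22 counts in young injured pool 1 and at most 5 in any other pool. Of the same list, Slc22a6 had 27 counts there and 0 to 7 in the other injured pools, and Ranbp3l had 38 and at most 18 elsewhere. Aldh1a2, also of this list, was not highest there, at 476 counts against 584 in middle-aged injured pool 2. Moxd1, of the perineurium list, had 365 counts in young injured pool 1 and at most 167 elsewhere. The summed level of the perineurium list was 141 CPM there, 122 and 127 CPM in the other young injured pools and 124 to 145 CPM in the middle-aged injured. In the naïve pools it was 147 to 174 CPM. Most of this sum was Slc2a1, at 99.2 CPM in young injured pool 1 and 94.5 to 144 CPM over all pools. The sum therefore cannot tell whether the other perineurium genes single out that pool. Besides Moxd1, Cldn1 had 112, 111 and 74 counts and Itgb4 90, 77 and 89 in the young injured pools. In middle-aged naïve pool 2, Aldh1a2, an enzyme of the meninges that makes retinoic acid, had 268 counts against 1 to 7 in the other naïve pools, and Slc22a6 had 29 against at most 2. That pool was also the naïve one with the most Ncmap (35 counts), Ngfr (44) and Scn7a (14), and the only pool with any Lypd2 (4). Cdh19 was at its naïve minimum there (358 counts), Prx had 1, and Egr2, Pmp2, Dhh, Cldn19 and Slc47a1 had 0. Mnx1, of the motor neuron list, had 380 counts there against 24 to 127 in the other naïve pools. Over the whole fibroblast list of 8 genes, the summed level was 59.3 to 69.98 CPM in young naïve and 60.3 to 132 CPM in middle-aged naïve pools, and 646 to 1065 and 301 to 602 CPM in the injured pools of the same ages. The part of these cells in the results below was not tested, and each result was also computed without young injured pool 1 and middle-aged naïve pool 2.

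Between injured and naïve white matter of young mice, 3 of the 5 genes that passed the filter on low counts were called at an adjusted p under 0.05 with edgeR's quasi-likelihood test: Egr2 and Ngfr rose and Cdh19 fell. Among all 15866 genes tested, 54.6% were called in this comparison, 28.3% higher and 26.3% lower, so the share among these genes was close to that of the table. In middle-aged mice 3 of 5 were called, with Egr2 and Pmp22 higher and Cdh19 lower, against 58.5% of all genes, 29.2% higher and 29.3% lower. Prx and Pmp2 did not pass the filter. The pools of the compared groups did not overlap for 4 of the 5 genes in young and 3 of the 5 in middle-aged mice, against 67.2% and 61.1% of all genes. Without the 2 pools that stood apart, 3 and 4 of the 5 were called, Ngfr joining in middle-aged mice. In such bulk samples, fewer cells of a type and less RNA per cell cannot be told apart.

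**Figure D2:**
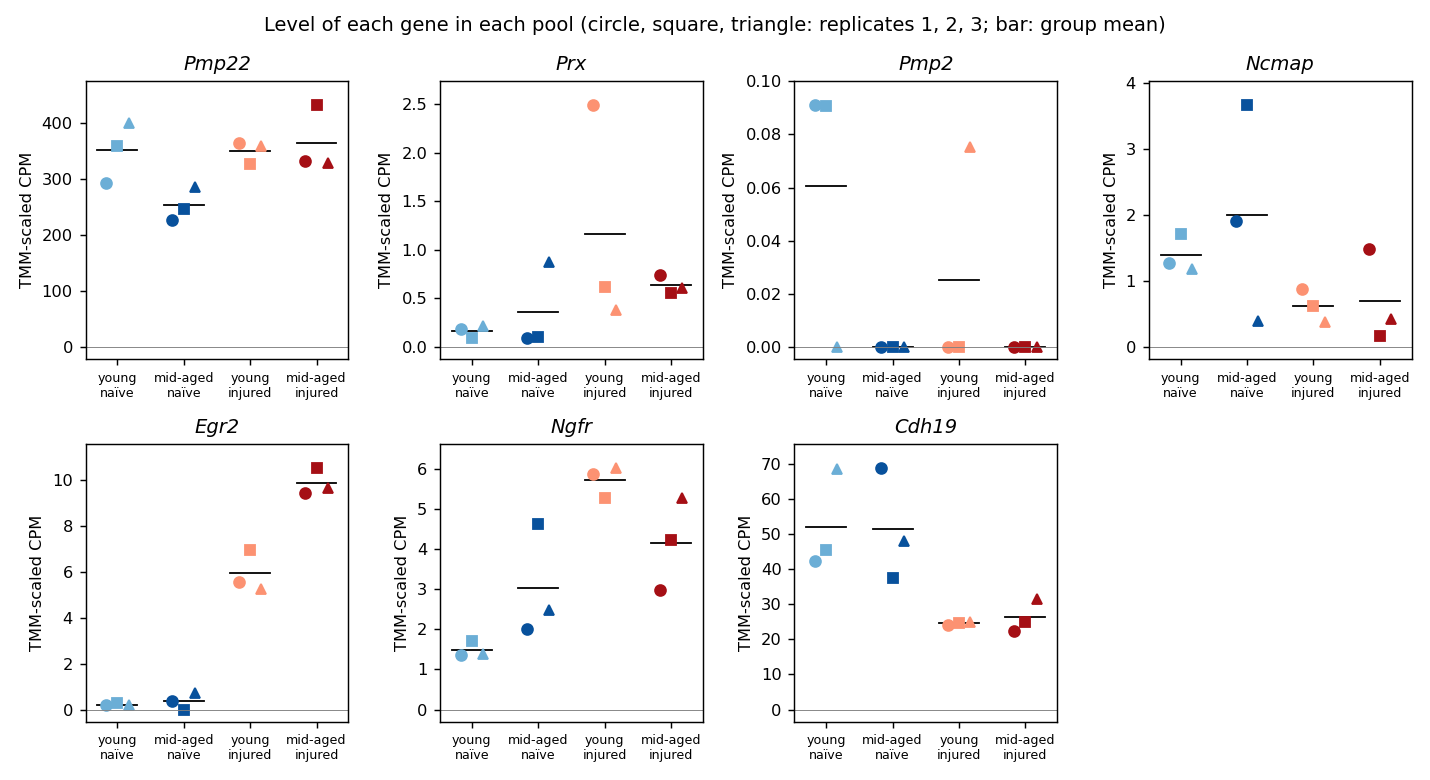
TMM-scaled CPM of the 7 genes in each pool, 1 panel per gene with its own linear axis, a symbol per pool and a bar at the group mean. Egr2 was at most 0.719 CPM in naïve and at least 5.26 CPM in injured pools, and Pmp2 had at most 1 count in any pool.

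Egr2, the factor that drives peripheral myelination, changed most. It had 2, 3 and 2 counts in the young naïve pools and 4, 0 and 9 in the middle-aged naïve pools. After injury it had 76, 90 and 70 counts in young and 114, 132 and 112 in middle-aged pools, so that every injured pool was far above every naïve pool. Its mean level went from 0.223 ± 0.0453 CPM to 5.94 ± 0.908 CPM at the young age, and from 0.368 ± 0.360 to 9.88 ± 0.571 CPM at middle age (SD over 3 pools). The log2 fold change was 4.67 (SE 0.53, adjusted p = 4.12e-06, edgeR) in young and 4.62 (SE 0.48, adjusted p = 1.45e-06) in middle-aged mice. Without the 2 pools that stood apart it was 4.71 and 4.11, so the rise did not rest on young injured pool 1, which had neither the most nor the fewest Egr2 counts of its group. Of the 8 myeloid markers, all 8 rose at both ages, beside 28.3% of all genes called higher in young and 29.2% in middle-aged mice. Their summed level went from 95.7 to 133 CPM in young naïve pools to 7538 to 9060 CPM in young injured pools. In middle-aged mice it went from 233 to 262 CPM to between 9495 and 10672 CPM. The part of these cells in the rise of Egr2 was not tested.

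Nab2, a corepressor that EGR2 induces and binds, rose with it. It had 9, 6 and 9 counts in young naïve and 17, 10 and 12 in middle-aged naïve pools, and 175, 150 and 127 in young injured and 163, 171 and 141 in middle-aged injured pools. Its log2 fold change was 3.86 (SE 0.29, adjusted p = 6.19e-08, edgeR) in young and 3.43 (SE 0.27, adjusted p = 9.11e-08) in middle-aged mice. Of its 2941 exon bases, 42.2% are shared with Stat6, Gm16229 or Nemp1, so its counts are less certain than those of Egr2. Sox10, the partner of EGR2 in myelinating glia, fell at both ages, from 356, 405 and 474 counts to 228, 223 and 300 in young pools and from 319, 355 and 608 to 168, 199 and 160 in middle-aged pools, and was named after its values were seen.

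Ngfr had 15, 19 and 13 counts in the young naïve pools and 80, 68 and 80 in the young injured pools, without overlap. In middle-aged mice it had 21, 44 and 31 counts in naïve and 36, 53 and 61 in injured pools, which overlapped. The mean level was 1.49 ± 0.197 CPM before and 5.72 ± 0.398 CPM after injury in young mice, and 3.03 ± 1.39 and 4.16 ± 1.14 CPM in middle-aged mice (SD, n = 3). The receptor thus rose in young mice, with a log2 fold change of 1.93 (SE 0.35, adjusted p = 0.000337, edgeR). The value in middle-aged mice, 0.46 (SE 0.34, adjusted p = 0.253, edgeR), did not pass. The highest naïve value was that of middle-aged naïve pool 2. Without that pool the middle-aged log2 fold change was 0.88 (adjusted p = 0.0255, edgeR). The difference between the injury effects of both ages was -1.46 (SE 0.49, adjusted p = 0.281, edgeR), so an unequal rise was not shown.

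Of 11 neurotrophins and partners of NGFR, 7 passed the filter. Over all genes, 54.6% were called with injury in young mice, 26.3% lower, and 58.5% in middle-aged mice, 29.3% lower. In young injured pools edgeR called 4 lower and 0 higher, with 4 at an unadjusted p under 0.05 and 4 called by DESeq2, and the median log2 fold change was -0.66 against 0.00064 over all genes. In middle-aged mice 3 were lower and 0 higher, with 3 at an unadjusted p under 0.05 and 3 called by DESeq2, and the median was -0.60 against -0.03. Sort1, the sorting receptor that binds proneurotrophins with NGFR, fell by 1.0002 on the log2 scale in young (SE 0.14, adjusted p = 2.65e-05, edgeR) and by 1.61 in middle-aged mice (SE 0.14, adjusted p = 2.37e-07). The receptor kinases Ntrk2 and Ntrk3 also fell at both ages.

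Pmp22 had by far the highest level of the 7 genes. Per kilobase of exon, its mean was 149 CPM in young naïve pools, against 12.2 for Cdh19 and less than 1 for each of the other 5. Its counts were 3221, 3958 and 3725 in young naïve, 2370, 2356 and 3572 in middle-aged naïve, 4968, 4208 and 4774 in young injured and 3998, 5406 and 3812 in middle-aged injured pools. Scaled, these were 350.5 ± 53.9, 253 ± 29.6, 349.7 ± 20.9 and 364 ± 58.4 CPM (SD, n = 3), so that the middle-aged naïve group was the low one and the other groups lay within their spread. The log2 fold change of Pmp22 with injury was -0.0030 (SE 0.14, adjusted p = 0.988, edgeR) at the young age and 0.52 (SE 0.14, adjusted p = 0.00599) at middle age. The call in middle-aged mice was kept without the 2 pools that stood apart, at 0.51 (adjusted p = 0.0179, edgeR). The difference of the injury effects was 0.53 (SE 0.20, adjusted p = 0.384, edgeR). Young injured pool 1, with 38.6% of the Prx counts, held 10.7% of the Pmp22 counts.

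Cdh19 fell with injury at both ages. It had 466, 500 and 637 counts in young naïve and 717, 358 and 599 in middle-aged naïve pools, and 328, 320 and 333 in young injured and 271, 314 and 365 in middle-aged injured pools. In scaled values the groups did not overlap, with 52.0 ± 14.3 and 51.4 ± 15.9 CPM in naïve and 24.6 ± 0.517 and 26.3 ± 4.64 CPM in injured white matter of young and middle-aged mice (SD, n = 3). The log2 fold change was -1.08 (SE 0.23, adjusted p = 0.00104, edgeR) in young and -0.97 (SE 0.23, adjusted p = 0.00212) in middle-aged mice. The 7 oligodendrocyte markers all fell too, beside 26.3% of all genes called lower in young and 29.3% in middle-aged mice. Mog, a protein on the surface of central myelin, had log2 fold changes of -2.56 and -2.44. Cdh19 was thus well above the floor in naïve pools with 1 or 2 counts of Prx, and young injured pool 1 held 6.30% of its counts.

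Ncmap was low throughout. It had 14, 19 and 11 counts in young naïve, 20, 35 and 5 in middle-aged naïve, 12, 8 and 5 in young injured and 18, 2 and 5 in middle-aged injured pools. The scaled young naïve pools all exceeded the young injured ones, but the log2 fold change of -1.14 (SE 0.77, adjusted p = 0.225, edgeR) did not pass, nor did that of -1.49 (SE 0.75, adjusted p = 0.105) in middle-aged mice. In middle-aged mice the value depended on single pools. Without naïve pool 2 the log2 fold change was -0.70 (adjusted p = 0.455, edgeR). It was -1.99 (adjusted p = 0.0219, edgeR) without naïve pool 3 and -2.71 (adjusted p = 0.0201, edgeR) without injured pool 1. In young mice the adjusted p was 0.0384 when the model held the 6 young pools alone (edgeR).

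For Prx, the ratio of summed counts per total between young injured and young naïve pools was 8.48 (95% exact counting interval 3.39 to 27.3), and 3.55 (1.19 to 12.7) without young injured pool 1. Without any filter on low counts its log2 fold change was 2.80 (SE 0.89, adjusted p = 0.00922, edgeR), and 1.59 (adjusted p = 0.333) when that pool was also left out. The unfiltered call of Prx in young mice therefore depended on that pool. The 8 and 5 counts of the other young injured pools were still above the 1 to 2 counts of the young naïve pools. In the 12 fits that each left out 1 pool, Prx passed the filter in 10 and was called in 8. It did not pass the filter in the fit without young injured pool 1. The filter was applied anew in each of these fits, so Prx entered only through the pools where it was high. These fits therefore cannot decide whether Prx rose. In middle-aged mice the unfiltered log2 fold change of Prx was 0.75 (SE 0.81, adjusted p = 0.515, edgeR). There, naïve pool 3 had 11 counts, more than the 9, 7 and 7 of the injured pools.

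**Figure D3:**
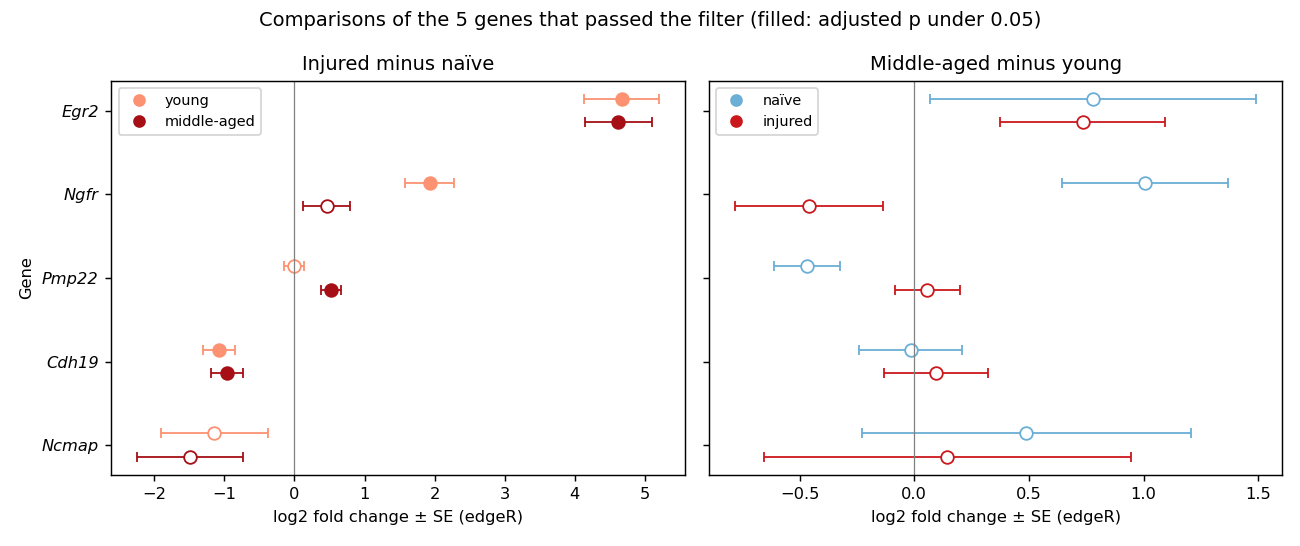
Log2 fold changes with their SE from edgeR for the 5 genes that passed the filter, injured minus naïve on the left and middle-aged minus young on the right, with filled circles for an adjusted p under 0.05. Egr2 at 4.67 and 4.62 and Cdh19 at -1.08 and -0.97 were called at both ages on the left, and 0 genes on the right.

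The companion genes of peripheral myelin moved apart from each other with injury. Of 9 genes, 7 passed the filter, with 3 higher and 3 lower in young mice (median log2 fold change -0.37) and 3 higher and 4 lower in middle-aged mice (median -0.81). Over all genes, 54.6% were called in young and 58.5% in middle-aged mice. Gldn, which clusters sodium channels at nodes of peripheral nerve, rose by 3.06 (SE 0.51, adjusted p = 0.000134, edgeR) and 3.12 (SE 0.49, adjusted p = 7.66e-05). Its counts were 1 to 19 in naïve and 75 to 108 in injured pools, with young injured pool 1, at 97, among the others. Adgrg6, the adhesion receptor that starts peripheral myelination, was higher at both ages by 0.76 and 0.78. Dhh was at least 3.02-fold higher in middle-aged injured pools, against the floor of 3 counts in each naïve pool, where it had 0. Drp2, Mal and Pllp fell at both ages, Drp2 by 1.18 (SE 0.15, adjusted p = 1.27e-05, edgeR) and 1.37 (SE 0.15, adjusted p = 2.53e-06). Mal and Pllp encode myelin membrane proteins that oligodendrocytes also make. Which cells carried the changes of the companion genes was not tested.

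With injury, 54.6% of all genes were called in young and 58.5% in middle-aged mice. Among 12 regulators of Schwann cells, 11 passed the filter, with 4 higher and 4 lower in young mice and 2 higher and 4 lower in middle-aged mice. Besides Sox10, those that fell at both ages were Erbb3, the neuregulin receptor, its ligand Nrg1, and the POU factor Pou3f2. Erbb3 fell by 1.86 (SE 0.17, adjusted p = 4.15e-07, edgeR) and 2.15 (SE 0.17, adjusted p = 1.00e-07). Of 12 genes of repair and immature Schwann cells, 11 passed, with 4 higher and 3 lower at each age. Jun, the factor that sets up the repair state, rose by 1.05 (SE 0.17, adjusted p = 9.28e-05, edgeR) and 1.41 (SE 0.17, adjusted p = 5.13e-06), and Gap43, of growing axons and repair cells, by 2.07 and 2.67. Gdnf, a trophic factor of repair cells, was named after its values were seen: it had 29 to 55 counts in injured pools and at most 2 in naïve pools, at least 15.8-fold higher in middle-aged mice. Ncam1 and Gfap fell at both ages, Gfap by 0.77 in young (SE 0.14, adjusted p = 0.000264, edgeR) and by 1.11 in middle-aged mice (SE 0.14, adjusted p = 8.44e-06). Gfap stood at 4948 to 6622 CPM and Erbb3 at 204 to 324 CPM in naïve pools, where Prx had at most 11 counts. Which cells carried the changes of these lists was not tested.

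Lists for the other cells of a root or its surroundings gave the following counts, beside 54.6% of all genes called in young and 58.5% in middle-aged mice. Of 4 perineurium genes tested, 2 were higher and 2 lower in young mice and 2 higher and 1 lower in middle-aged mice. Of 6 fibroblast genes tested, 5 and 4 were higher and 0 lower, Col1a1 by 5.06 (SE 0.41, adjusted p = 1.28e-07, edgeR) and 4.46 (SE 0.45, adjusted p = 1.02e-06). The 6 genes of motor neurons and their ventral root axons were all lower at both ages, and Chat, the enzyme that makes acetylcholine, fell by 3.11 at each age. Their summed level was 184 to 376 CPM in the young naïve and 264 to 359 CPM in the middle-aged naïve pools, and 30.9 to 52.7 CPM in injured pools. Young injured pool 1, the pool with the most Prx, had 52.7 CPM. Whether the tissue cut out differed between naïve and injured pools was not tested. Of 8 endothelial and mural genes, 4 were higher and 1 lower in young and 4 higher and 3 lower in middle-aged mice.

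**Figure D4:**
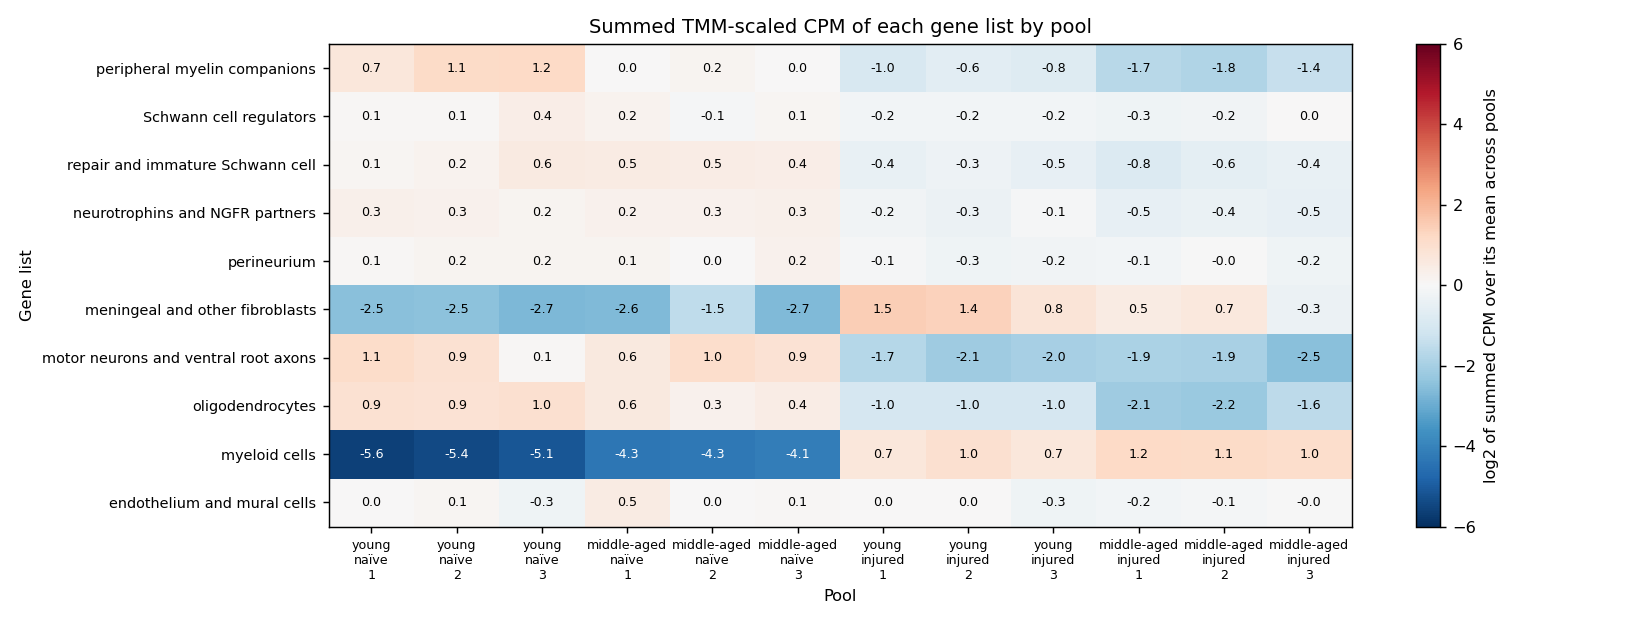
Summed TMM-scaled CPM of 10 gene lists in each pool, as the log2 of its ratio to the mean of the list over the 12 pools, in colour and as a printed value. The fibroblast list reached 132 CPM in middle-aged naïve pool 2 against at most 69.98 CPM in the other naïve pools, and the oligodendrocyte list was lower in all 6 injured pools.

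Between middle-aged and young naïve mice, edgeR called 0 of the 5 genes, with 2 at an unadjusted p under 0.05, against 3.8% of all genes called. DESeq2 called 1, Pmp22. The pools of both ages did not overlap for 2 of the 5 genes, as for 17.1% of all genes. Pmp22 was the lower of these in the middle-aged pools, with a log2 difference of -0.47 (SE 0.14, adjusted p = 0.0921 with edgeR and 0.0447 with DESeq2). Ngfr was higher, by 1.005 (SE 0.36, adjusted p = 0.152, edgeR), and by 0.58 without middle-aged naïve pool 2. Between the injured groups of both ages, 0 of 5 were called by edgeR and 0 by DESeq2, with 0 at an unadjusted p under 0.05, against 1.15% of all genes. Again 2 of 5, Egr2 and Ngfr, did not overlap between ages, as 23.2% of all genes did not. Egr2 was higher in all 3 middle-aged injured pools than in all 3 young ones, by 0.73 (SE 0.36, adjusted p = 0.555, edgeR). Its adjusted p was 0.0308 when the model held the 6 injured pools alone. For the difference of injury effects, 0 of 5 were called by either tool, with 2 at an unadjusted p under 0.05, Pmp22 and Ngfr, against 0.139% of all genes. In each of these comparisons 2 or fewer genes of the companion list were called: Mal and Pllp were lower in middle-aged naïve and Mal in middle-aged injured pools. With age, 3 of 7 oligodendrocyte genes were called lower among naïve and 5 among injured pools, with Opalin, a membrane protein of oligodendrocytes, at log2 differences of -1.15 and -1.23. Of the 8 myeloid markers, 5 were higher in middle-aged naïve pools. The part of these cells in the differences between ages was not tested.

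The genes whose log2 levels over the 12 pools were most like those of each gene are given as a description, since all share the contrast of injured and naïve libraries. For Egr2 these were Lman1 (Pearson's r = 0.998), Atf1 (0.994) and Syk (0.994), among 13084 genes searched. For Cdh19 they were Itch (0.978), Dock5 (0.967) and Cdk19 (0.966), and for Pmp22 Ybx3 (0.954), Ehd1 (0.918) and Emilin2 (0.910). Ngfr was most like Rbms2 (0.930), Gm14820 (0.930) and Cavin1 (0.927), and Ncmap most like Gm14325 (0.912), Tmem204 (0.899) and BC005561 (0.878). No gene of the 7 was among the 3 nearest of another. With group means removed, the nearest were Lman1 (0.987) for Egr2, Ppp6c (0.964) for Cdh19, Ctr9 (0.936) for Pmp22, Uqcc2 (0.985) for Ngfr and Brox (0.938) for Ncmap. Only Egr2 thus kept its first neighbour. As Egr2 had 0 to 9 counts in naïve pools, its deviations rest in part on counts near the floor.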

How the data were processed

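RNA of laser-captured, cresyl violet stained cryosections was amplified while libraries were built. Per the labels and the methods, the authors checked reads with FastQC 0.11.4, mapped them to GRCm38 with TopHat2 2.0.10 and Bowtie 1.1.2, and deposited raw counts of reads per gene from featureCounts. The annotation release, the strand setting and the handling of shared reads are not given in the sources used here. Positions and exon overlaps were taken from GENCODE M21.

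Groups and replicate numbers came from the sample labels, ages from the methods, and times and pool sizes from the series' design text. In 1 model, edgeR 4.0.16 under R 4.3.3 fitted the counts of the 12 pools without covariates, after filterByExpr and TMM scaling, and tested contrasts by quasi-likelihood F tests. Benjamini-Hochberg adjustment ran over 15866 genes, with a threshold of 0.05. An SE is the log2 fold change over the square root of F. DESeq2 1.42.0, the tool of the study, was an alternative. The steps were tested on simulated data. The members and lists were chosen with earlier results of these data known. All 7 members were named. Lists and sums were taken without 3 genes that are not reported here. From each list up to 4 called genes per comparison were named, those with the largest changes at a mean log2 CPM of at least 1 (prior count 2), and companion, perineurium and defining genes of a root by counts. Slc47a1, Slc22a6 and Ranbp3l of the fibroblast list were named outside this rule, for their values in single pools. For likeness, 3 genes per member were named. Alternatives were other scalings, filters and tools, the replicate block, only the pools compared, and each pool left out. The omission of both pools that stood apart, of Drp2, and of young injured pool 1 without any filter were added after seeing the data. The pools of a group differed by more than counting noise (chi-square per degree of freedom at least 7.48).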

Additional observations from a re-analysis of the deposited data

Results flagged for a closer look

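Of the list genes and the 7 genes tested for it, 1 differed between ages in its response to injury. Lyz2, the lysozyme of macrophages and neutrophils in the myeloid list, had a difference of injury effects, middle-aged minus young, of -1.89 on the log2 scale (SE 0.21, adjusted p = 0.00275, interaction contrast of edgeR). By DESeq2, 3 myeloid genes and 1 fibroblast gene passed the same contrast. It rose by 8.15 in young and 6.26 in middle-aged mice, and in naïve white matter it was higher in middle-aged mice by 2.15 (adjusted p = 8.18e-06, edgeR).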

How the results depend on the processing

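Depth limits Prx, Pmp2, Ncmap and the naïve levels of Egr2, which rest on few counts. The calls of Egr2 and Cdh19 at both ages, of Ngfr in young and of Pmp22 in middle-aged mice held in every alternative run, 22 for each. By library totals alone, the median log2 fold change of all genes was 0.20 for injury in young mice, 0.077 for injury in middle-aged mice and -0.13 for the interaction, against 0.00064, -0.03 and -0.05 with TMM scaling. With each pool left out in turn, 3 to 4 of the 7 genes were called in each injury contrast and 0 in the others. Over all genes, 7533 to 9681 were then called for injury in young and 8270 to 9644 in middle-aged mice. The filter was applied anew each time, and Prx passed it in 10 of these 12 fits. The replicate numbers did not pair the pools, as correlations of same-numbered deviations ran from -0.11 to 0.15. In the fit that had the replicate block, 3, 3, 0, 0 and 0 of the genes were called for injury in young, injury in middle-aged, age in naïve, age in injured and the interaction, as without it.

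The cause of the following changes was not tested. For age in naïve mice, 1 of the 7 genes, Pmp22, was called with DESeq2, with no filter, and with no filter and without young injured pool 1. For age in injured mice, 1, Egr2, was called with only the 6 pools compared. Against 603 genes in all for age in naïve mice, DESeq2 called 1111, no filter 1153, only the 6 pools 71, and no filter without young injured pool 1 1093, with 261 to 799 when 1 pool was left out. Against 182 for age in injured mice, the same settings gave 458, 437, 821 and 307, and 45 to 410. Against 22 for the interaction, DESeq2 gave 254, no filter 329, no filter without young injured pool 1 266, and leaving out 1 pool 3 to 56. The summed level without Drp2 was 1.55, 2.17, 1.503, 2.01, 3.77, 1.28, 5.43, 3.25, 2.26, 2.98, 1.99 and 1.64 CPM in the naïve pools, young first, and then in the injured pools, young first. By library totals the sum with Drp2 moved to 70.9 CPM in young naïve pool 2, 82.8 in middle-aged naïve pool 2 and 51.01 in young injured pool 1.

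Values that turned sign were all uncalled. For Pmp22 and injury in young mice the log2 fold change was 0.0073 with DESeq2, 0.0073 with its size factors, 0.19 with library totals, 0.0049 without a filter and 0.0090 with the replicate block, and -0.11 to 0.10 with 1 pool left out. For age in injured mice it was -0.0029 with library totals and -0.080 to 0.14 with 1 pool left out. Cdh19 with library totals was at 0.016 for age in naïve mice. With both pools that stood apart left out, Ncmap was at -0.30 for age in naïve mice and 0.77 for the interaction, and Cdh19 at 0.16 and -0.085 for the same. With 1 pool left out, Ncmap ranged from -0.30 to 0.99 for age in naïve mice, -1.06 to 0.62 for age in injured mice and -1.57 to 0.45 for the interaction. Egr2 ranged from -0.16 to 1.29 for age in naïve mice and -0.56 to 0.89 for the interaction. Cdh19 ranged from -0.28 to 0.23, -0.037 to 0.21 and -0.13 to 0.38 for the same 3 contrasts as Ncmap.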
